A study of Homo sapiens with 4 samples.

Results

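The 10 genes described here encode S100 calcium-binding proteins, namely S100A4, S100A6, S100A7, S100A8, S100A9, S100A10, S100A11, S100A14, S100A16 and S100P. They were chosen by name, and their probes were found through the RefSeq accession that the array files give for each probe. This matched 11 probes, with 2 for S100A11 and 1 for each of the other genes, of 41000 probes on the array, of which 23680 were named for 16422 genes. All 10 genes passed the filter on low signals, which kept 25927 probes (63.2%) with a signal of at least 100 on at least 1 array.

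Total RNA was profiled from SkBr3 and BT474, both HER2-positive human breast cancer cell lines, and from a lapatinib-resistant derivative of each. SkBr3/Lap and BT474/Lap were selected by raising the concentration of lapatinib, which blocks the kinases EGFR and HER2, to 1 μM, and the labels give vehicle as the treatment of the parental cells and lapatinib as that of the clones. Each resistant sample is 1 clone, so a property of the clone and an effect of resistance or of the drug cannot be told apart. One array was hybridized per sample, 4 in all, and none of the arrays has a replicate. The sample labels number the clones 3 for SkBr3 and 6 for BT474, while the study's text and the names of the deposited array files give those numbers the other way round, so the clones are named by cell line only.

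S100 proteins are small proteins of the EF-hand type, most of them calcium sensors, that work mostly as dimers. On binding calcium, most of them open a surface that grips target proteins. Among the targets of the family are annexins, cytoskeletal motors and, after release from the cell, receptors such as RAGE and TLR4. Most of their genes sit together in the epidermal differentiation region of chromosome 1q21, and several are used as markers of inflamed, differentiating or malignant epithelium.

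The stretch just before each gene's transcription start is shown because the letters TATAAA, the core of a TATA box, divided the genes in a way that is taken up again with their levels. The 60 bases before the start are given 5′ to 3′ on the strand of the gene, from RefSeq promoters of GRCh38.p14, with TATAAA in capitals. RefSeq lists 3 starts for S100A8, of which the one with these letters is shown, and 2 for S100A16, of which the first in the direction of transcription is shown.
S100A4, chr1:153545807-153545866 (-): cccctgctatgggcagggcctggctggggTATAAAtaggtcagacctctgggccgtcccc
S100A6, chr1:153535992-153536051 (-): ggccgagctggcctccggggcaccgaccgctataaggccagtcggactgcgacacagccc
S100A7, chr1:153460652-153460711 (-): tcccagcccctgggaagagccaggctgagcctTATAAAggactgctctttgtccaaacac
S100A8, chr1:153391074-153391133 (-): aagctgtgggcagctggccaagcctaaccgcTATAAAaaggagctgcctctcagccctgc
S100A9, chr1:153357794-153357853 (+): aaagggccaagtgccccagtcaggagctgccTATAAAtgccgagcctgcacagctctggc
S100A10, chr1:151993860-151993919 (-): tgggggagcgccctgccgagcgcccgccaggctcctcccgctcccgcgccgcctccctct
S100A11, chr1:152037005-152037064 (-): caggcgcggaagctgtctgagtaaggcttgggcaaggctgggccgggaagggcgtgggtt
S100A14, chr1:153616326-153616385 (-): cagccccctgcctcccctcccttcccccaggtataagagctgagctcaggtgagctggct
S100A16, chr1:153613138-153613197 (-): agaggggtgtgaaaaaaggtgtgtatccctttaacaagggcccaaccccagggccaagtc
S100P, chr4:6693818-6693877 (+): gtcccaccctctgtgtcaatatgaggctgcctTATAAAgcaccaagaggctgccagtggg
The letters were present in 5 of the 10 genes, S100A4, S100A7, S100A8, S100A9 and S100P, and began 28 to 31 bases before the start in each of them. S100A6 and S100A14 held TATAAG, which differs in the last letter, and were counted as without TATAAA. Of 35116 RefSeq promoters, 2.78% held TATAAA on the same strand in these 60 bases. Over 250 bases and both strands, 10.7% held it. In the same 250 bases, the AP-1 motif TGANTCA (6.57% of promoters) and the STAT motif TTCNNNGAA (6.57%) matched none of the 10 genes, the C/EBP motif TTGCNNAA (9.05%) matched S100A11, and the NF-κB motif (9.96%) matched S100A14. A match is a run of letters and was not tested as a binding site.

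The 75th percentile of the probe signals lay between 1115 and 2074 on the 4 arrays, and 66.6% to 74.0% of the probes were well above background by the scanner software's mark. No spot was saturated, and none of the 11 spots of the S100 probes carried an outlier mark on any array. SkBr3/Lap was hybridized on a slide of its own and the other 3 arrays shared a slide, so that slide and resistance cannot be told apart for SkBr3, while the BT474 pair lay within 1 slide. Of 7 markers of luminal HER2-positive cells, all 7 were well above background in BT474 and BT474/Lap, and 6 in SkBr3 and SkBr3/Lap, where CDH1, the gene of E-cadherin, was not. ERBB2, the gene of HER2, was 3.74-fold lower in the SkBr3 clone and 1.57-fold lower in the BT474 clone than in the parental cells. Fold changes below are differences of log2 processed signal after subtracting each array's 75th percentile. The median SD among spots of a probe within an array gives a spread of 0.11 (log2) for such a difference, and this leaves out the variation between cultures. In RNA from whole cultures, fewer cells expressing a gene and less RNA per cell cannot be told apart.

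To address how these genes differed in resistant cells, every clone was set against its parent line. Higher by at least 2-fold in SkBr3/Lap were 4 genes, S100A7, S100A8, S100A9 and S100A10, against 12.9% of all 25927 probes. Another 2, S100A4 and S100A6, were at least 2-fold lower, against 15.6% of all probes. In BT474/Lap, S100A4 was the 1 gene at least 2-fold higher (10.3% of all probes) and S100P the 1 gene at least 2-fold lower (5.16%). The median log2 fold change of the 10 genes was -0.20 in the SkBr3 clone and -0.03 in the BT474 clone, beside -0.10 and -0.05 over all probes kept. At a 3-fold threshold S100A7 stayed higher in SkBr3/Lap (7.66% of all probes) and S100A6 lower (7.13%), and in BT474/Lap S100A4 stayed higher (4.84%) and S100P lower (2.01%). These shares come from 1 array per side and carry no test.

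**Figure D1:**
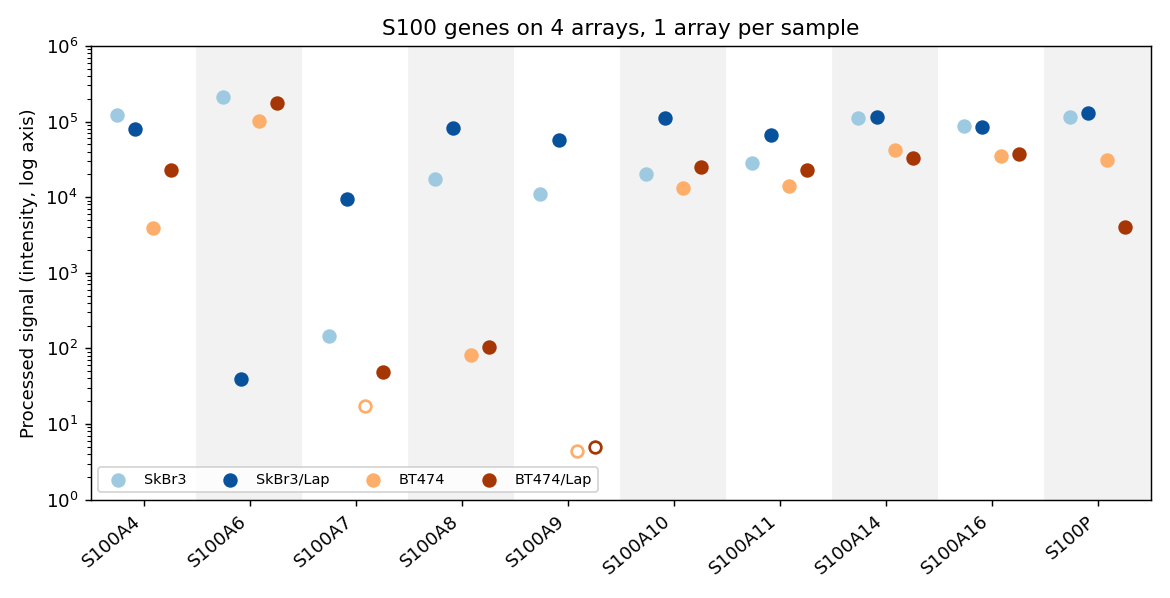
Processed signal (intensity, log axis) of the 10 S100 genes on the 4 arrays, 1 point per array, with open points for signals not well above background. S100A6 stood at 39.3 in SkBr3/Lap and above 100000 on the other 3 arrays, and S100A9 was not well above background in BT474 and BT474/Lap. Points of different genes are not comparable, as each probe has its own response.

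S100A8 and S100A9 form the heterodimer calprotectin, a secreted alarmin and metal-binding antimicrobial protein abundant in neutrophils and inflamed epithelium. For S100A8, SkBr3 gave a signal of 17242 and SkBr3/Lap 81554, while BT474 gave 82.7 and BT474/Lap 103.1. It was thus high in both SkBr3 samples and far lower in both BT474 samples. In the latter it was well above background and under the array medians of 113.8 in BT474 and 190.6 in BT474/Lap. In SkBr3/Lap it was 2.54-fold higher than in SkBr3 (log2 1.35), and in BT474/Lap the log2 fold change was -0.22. For S100A9, the signal was 10889 in SkBr3 and 56404 in SkBr3/Lap, but 4.3 and 4.9 in parental and resistant BT474 cells. The last pair was not well above background, so the BT474 clone has no fold change for this gene, whereas SkBr3/Lap was 2.78-fold higher than SkBr3 (log2 1.48). Both partners of the dimer were thus higher in SkBr3/Lap than in SkBr3 by a similar fold and low in the BT474 cells.

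Calprotectin is best known from myeloid cells. Of 8 myeloid markers with a probe, 4 exceeded background clearly in SkBr3 and 5 in SkBr3/Lap, as did 3 in BT474 and 4 in its clone, and their summed signals were 6054, 42607, 219.3 and 314.4. The leukocyte gene PTPRC and the granulocyte gene MPO were not well above background on any array. CSF1R, a receptor kinase that read 5913 in parental and 42225 in resistant SkBr3 cells and 5.1 and 7.0 in the BT474 pair, made up most of the sums in the SkBr3 samples. The part of these genes in the S100A8 and S100A9 values was not tested.

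S100A7, or psoriasin, is a secreted protein of stressed and psoriatic keratinocytes that is also found in breast carcinoma in situ. Its signal was 144.8 in SkBr3 against 9427.5 in SkBr3/Lap and was 17.6 in BT474 against 48.5 in BT474/Lap. SkBr3/Lap stood far above the other 3 arrays, and the BT474 signal was not well above background. The gene was 35.0-fold higher in SkBr3/Lap than in SkBr3 (log2 5.13), and at least 1.90-fold higher in BT474/Lap than in BT474, where normexp background correction with quantile normalization gave a log2 fold change of 0.15. S100A7 has a close copy, S100A7A, which was 252.5 in SkBr3/Lap and not well above background on the other 3 arrays, so the values of the pair are uncertain where a probe reads both. Of 8 keratinocyte markers, 6 were well above background in each SkBr3 sample and 7 in each BT474 sample, with summed signals of 62631, 81188, 24159 and 35135. KRT10, a suprabasal keratin, made up most of these sums and had log2 fold changes of -0.59 and -0.03 in the SkBr3 and BT474 clones. Among the 6 markers that passed the filter, 2 were at least 2-fold higher and 1 lower in SkBr3/Lap (KRT1, not well above background on either array of the pair), with a median log2 fold change of 0.21, and 3 were higher and none lower in BT474/Lap, with a median of 0.85. FLG, the gene of filaggrin, was not well above background on any array, and KRT14, a basal keratin, was 17.0-fold higher in the SkBr3 clone and 2.83-fold in the BT474 clone by its brighter probe and 1.82-fold and 1.08-fold by the other. The part of this program in the S100A7 values was not tested.

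S100A10 and S100A11 are partners of annexins. S100A10, or p11, forms a tetramer with annexin A2 at the plasma membrane and binds plasminogen activators there. SkBr3 gave 20223 and SkBr3/Lap 110514 for this gene, BT474 gave 13310 and BT474/Lap 25289, so that SkBr3/Lap was high and the other 3 arrays lay close together. It was 2.94-fold higher in SkBr3/Lap (log2 1.55), and its log2 fold change was 0.39 in BT474/Lap. S100A11, which binds annexin A1, was measured by 2 probes. The brighter one read 28447 in SkBr3 against 65573 in SkBr3/Lap, and 14021 in BT474 against 22625 in BT474/Lap, and the other 16629, 41993, 9105 and 14132 in the same order. After scaling, both probes kept S100A11 within 2-fold in each clone, with log2 fold changes of 0.31 and 0.44 in the SkBr3 clone and 0.15 and 0.10 in the BT474 clone.

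S100A6, or calcyclin, binds the ubiquitin ligase adaptor CACYBP and several annexins and is linked to proliferation. It read 211357 in SkBr3 and 39.3 in SkBr3/Lap, compared with 100996 in BT474 and 175019 in BT474/Lap. The gene gave a bright signal on 3 arrays and a signal little above background on SkBr3/Lap, where it was 10002-fold lower than in SkBr3 (log2 -13.29). This was the largest fall among all 25927 probes, the next being -12.77, and also among the 23945 probes well above background on both SkBr3 arrays, where the next was -9.63. Of the 274 probes with a signal of at least 100000 in SkBr3, the next lowest had a log2 fold change of -2.85, and their median was -0.58. In BT474/Lap the log2 fold change of S100A6 was 0.26.

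The S100A6 value in SkBr3/Lap rests on 1 spot. Its median pixel intensity there was 83 over a local background of 19, compared with 226110 over 21 in SkBr3, and neither spot was marked as an outlier. The 8 adjacent spots on the SkBr3/Lap array had local backgrounds of 18 to 21, and the log2 fold changes of their probes ran from -1.68 to 10.52, with 2 at least 2-fold lower. With normexp background correction and quantile normalization the log2 fold change was -11.24. No further probe of S100A6 was on the array, and the part of this spot in the value was not tested.

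Among named genes outside the family that were well above background on all 4 arrays (15527 probes), 3 had centered profiles closest to that of S100A6. They were CA12, a carbonic anhydrase, at a Euclidean distance of 2.98 (log2, 4 arrays), CTNND2, a catenin, at 3.23 and ALDH2, an aldehyde dehydrogenase, at 3.25. CA12 read 18276 in SkBr3 and 48.5 in its clone, and 12153 in BT474 and 54682 in its clone. CTNND2 read 7143, 16.8, 5935 and 4103 in the same order, and ALDH2 read 18731, 59.5, 14880 and 21056. All 3 had their single low array in SkBr3/Lap, as S100A6 did. That follows from choosing them by closeness to S100A6 and is no separate check of the S100A6 value.

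S100A4, or metastasin, binds non-muscle myosin and is associated with motility and metastasis. Signals of 123673 in SkBr3 and 79071 in SkBr3/Lap stood beside 3896 in BT474 and 22581 in BT474/Lap. Both SkBr3 samples were higher than both BT474 samples. The clones moved apart in sign, with S100A4 2.91-fold lower in SkBr3/Lap (log2 -1.54) and 3.99-fold higher in BT474/Lap (log2 2.0), and the gap between SkBr3 and BT474 cells was narrower in the clones (2.84-fold) than in the parental cells (33.0-fold). These differences were not tested.

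S100P, which binds ezrin and, outside the cell, RAGE, lies on chromosome 4 apart from the other 9 genes. Its signal was 115888 in SkBr3 and 131485 in SkBr3/Lap, as against 31403 in BT474 and 4077 in BT474/Lap. BT474/Lap was the low array, 11.2-fold below BT474 (log2 -3.48). The fall ranked 41 among the 24599 probes well above background on both BT474 arrays, with 0.163% of them lower. In SkBr3/Lap the log2 fold change of S100P was -0.71, which lay within the interquartile range of -0.74 to -0.41 of the 274 probes at or above 100000 in SkBr3.

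S100A14 and S100A16 are widely expressed epithelial members of the family. S100A14 read 112967 and 113997 in parental and resistant SkBr3 cells, and 41814 and 32611 in the BT474 pair. S100A16 read 86686, 85310, 35482 and 37092 in the same order. Their signals hardly differed within a cell line, and scaling to the brighter clone arrays gave S100A14 and S100A16 log2 fold changes of -0.88 and -0.92 in the SkBr3 clone and -0.90 and -0.47 in the BT474 clone, all short of 2-fold in these values. Scaled fold changes were also set against the brightness of the probes. Probes with a parental signal of 10000 to 100000 had median log2 fold changes of -0.13 and -0.27 in the SkBr3 and BT474 clones. Those at or above 100000 had -0.58 and -0.46. In dimmer probes the medians were -0.20 and 0.02 at 100 to 1000, and -0.07 and -0.14 at 1000 to 10000. In the SkBr3 clone the class of 10000 to 100000 was thus no lower than that of 100 to 1000. S100A14 lay below the lower quartile of the class at or above 100000 (-0.74) in that clone, and S100A16 below that of the 10000 to 100000 class (-0.46). In the BT474 clone S100A14 lay below the lower quartile of the 10000 to 100000 class (-0.50). S100A4, at 123673 in SkBr3, was also in the class at or above 100000. Its log2 fold change of -1.54 in the SkBr3 clone lay below the lower quartile of that class (-0.74). The part of brightness in the S100A4, S100A14, S100A16 and S100P values was not tested.

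**Figure D2:**
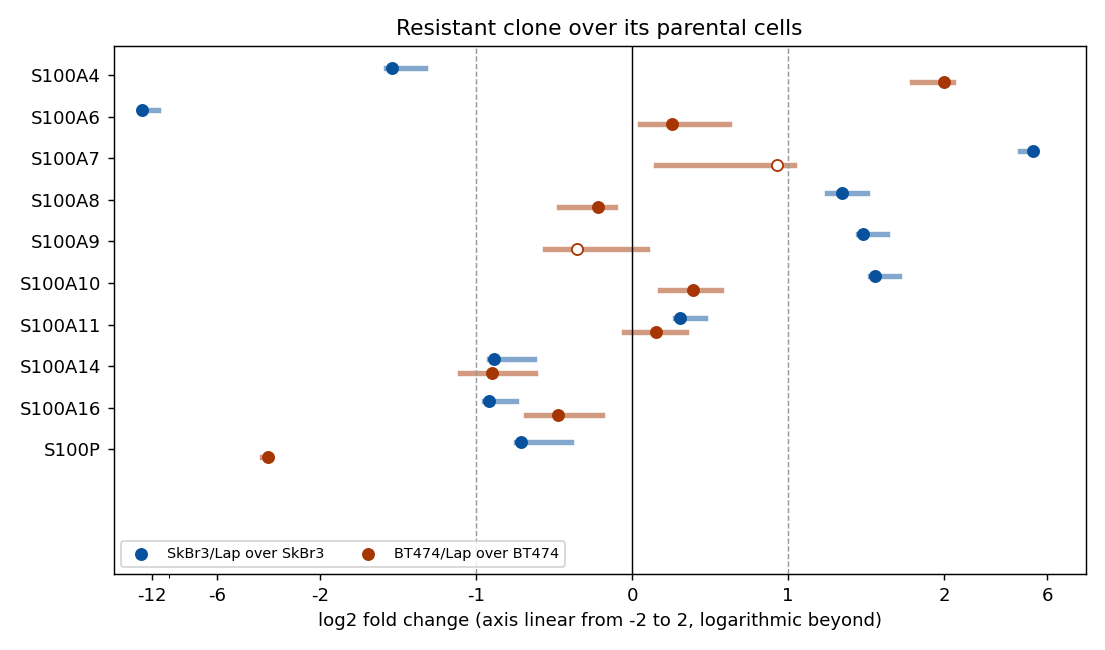
Log2 fold change of each S100 gene in SkBr3/Lap over SkBr3 (blue) and BT474/Lap over BT474 (orange), with bars spanning the lowest and highest value under the alternative processings and dashed lines at 2-fold. Open points have at least 1 signal not well above background. S100A4 lay on opposite sides of 0 in the clones, at -1.54 and 2.0, and S100A6 at -13.29 and 0.26.

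The cell lines were also compared with each other, which shares its arrays with the comparisons above. Parental SkBr3 cells exceeded BT474 by at least 2-fold in 9 of the 10 genes (19.5% of all probes), and none was at least 2-fold lower (19.5%). S100A10, at 1.58-fold (log2 0.66), was the gene short of 2-fold. The difference was at least 709-fold for S100A9, 217-fold for S100A8, 33.0-fold for S100A4 and at least 8.57-fold for S100A7. It was 3.83-fold for S100P, 2.81-fold for S100A14, 2.54-fold for S100A16, 2.17-fold for S100A6 and 2.11-fold for S100A11. The median log2 difference of the 10 genes was 1.71, beside 0.04 over all probes. With a 3-fold threshold 5 genes were higher (11% of all probes) and 0 lower (12.2%). After quantile normalization 7 were at least 2-fold higher, without a share of all probes to set beside that count.

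Between the clones, 8 genes were at least 2-fold higher in SkBr3/Lap than in BT474/Lap (22.8% of all probes) and 1, S100A6, was at least 2-fold lower (25.6%). S100A6 was 5493-fold lower in SkBr3/Lap. S100A9 was at least 3121-fold higher there, S100A8 641-fold, S100A7 158-fold and S100P 26.1-fold. S100A16, at 1.86-fold, was the gene within 2-fold. At 3-fold, 5 genes were higher (13.3%) and 1 lower (17.5%). The cell lines thus differed by more than either clone did from its parent for S100A8 and S100A9. A limma fit over parental and resistant cells together held resistance in the model and left 1 residual degree of freedom. In it 2 of the 10 genes passed for SkBr3 against BT474 cells, S100A8 and S100A9, both higher in SkBr3 cells. Each had an adjusted p = 0.039 (limma, Benjamini-Hochberg over all probes), and 2.07% of all probes passed. The estimate for S100A8 was 8.54 ± 0.59 (log2, SE, 4 arrays), and that for S100A9 rests on BT474 signals not well above background. The other 8 genes had adjusted p of 0.136 to 0.422. A parent and its own clone stood in as the 2 arrays of each cell line. They are not independent cultures, so the p does not measure the variation between cultures. This test was added after the data were seen.

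In RefSeq's order along chromosome 1, 16 S100 genes including 9 of the 10 follow each other as S100A10, S100A11, S100A9, S100A12, S100A8, S100A7A, S100A7, S100A6, S100A5, S100A4, S100A3, S100A2, S100A16, S100A14, S100A13 and S100A1. In SkBr3/Lap the 7 genes from S100A10 to S100A7 had log2 fold changes above 0, from 0.31 to 5.13. S100A6 came next at -13.29, and of the 7 measured genes after it 6 were below 0, with S100A3 at 0.51 as the exception. The signs thus changed once along the row apart from S100A3, while the median over all probes kept was -0.10. S100A4 and S100A14 read above 100000 in SkBr3, and S100A16 and S100A13 read 86686 and 70632. Probes at or above 100000 in SkBr3 had a median log2 fold change of -0.58, and those of 10000 to 100000 had -0.13. The part of brightness in these signs was not tested. Of the genes below 0 after S100A6, S100A4 at -1.54 alone reached 2-fold, and S100A5 was at -0.43. In BT474/Lap no such division was seen, with S100A4 at 2.0 and S100A2 at 2.57 on one side and S100A14 at -0.90 close by. The division was noticed after the values were seen and was not tested.

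**Figure D3:**
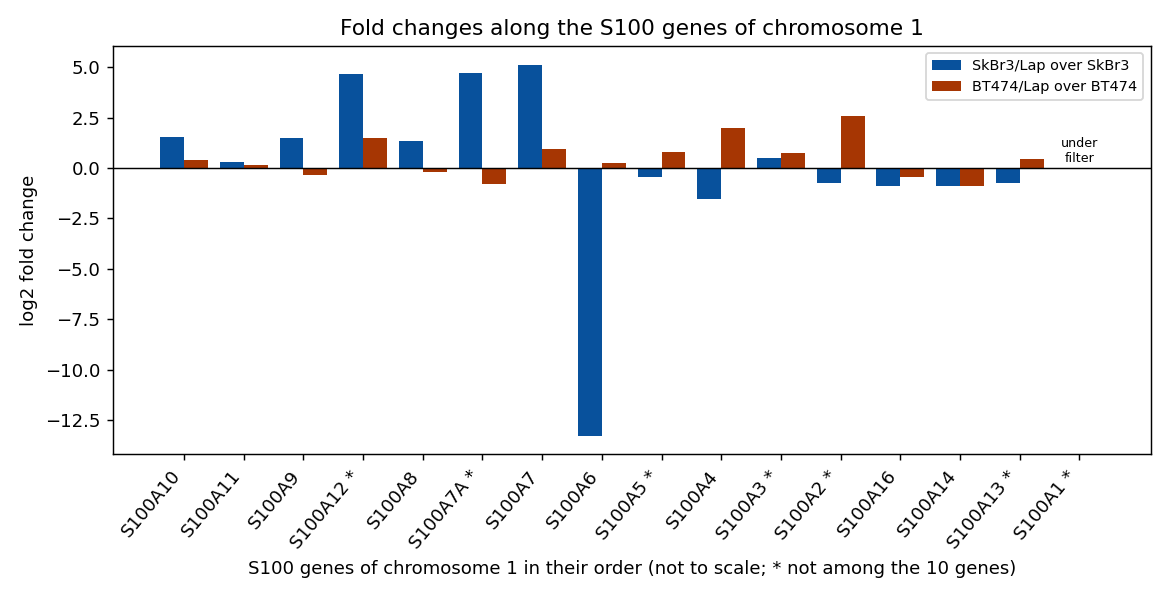
Log2 fold change along the S100 genes of chromosome 1 in RefSeq's order (not to scale) in SkBr3/Lap (blue) and BT474/Lap (orange), with S100A1 under the signal filter and values that rest on a dim signal included. In SkBr3/Lap the 7 genes up to S100A7 lay above 0, and S100A6 fell to -13.29.

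Of 10 other S100 genes, all with a probe, 6 passed the filter. S100A12, a neutrophil protein and RAGE ligand, read 41.2 in SkBr3 against 1955 in SkBr3/Lap, and 6.5 in BT474 against 26.4 in BT474/Lap. It was 25.5-fold higher in the SkBr3 clone and at least 1.14-fold higher in the BT474 clone, whose parent was not well above background. S100A7A was at least 8.48-fold higher in SkBr3/Lap. This made 2 of the 6 genes at least 2-fold higher and none lower, beside 12.9% and 15.6% of all probes. With normexp and quantile normalization the log2 fold changes in SkBr3/Lap were smaller, 1.65 for S100A7A and 3.50 for S100A12. In BT474/Lap, S100A2, a keratinocyte protein regulated by p53 family factors, was 5.92-fold higher, from 524.6 to 4507, and its log2 fold change was -0.75 in SkBr3/Lap. S100B, S100G and S100Z were not well above background on any array.

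Among 13 genes for partners and receptors of S100 proteins, 12 passed the filter. The SkBr3 clone had 3 of them at least 2-fold higher and 1 lower, and the BT474 clone 1 higher and none lower, beside 12.9% and 15.6% of all probes in the first pair and 10.3% and 5.16% in the second. ANXA1, the annexin bound by S100A11, read 325.9 against 29315 in the SkBr3 pair and 2759 against 8246 in the BT474 pair, 48.4-fold and 2.06-fold higher in the clones, and median scaling took the BT474 value under 2-fold (log2 0.84). ANXA2, the partner of S100A10, was 2.55-fold higher in SkBr3/Lap by its brightest probe, with a log2 fold change of 0.01 in BT474/Lap. Its dimmest probe gave 7.19-fold and at least 17.8-fold, so the probes of ANXA2 disagreed for the BT474 clone. EZR, the gene of ezrin, was 2.44-fold higher and ANXA6, an annexin bound by S100A6, was 5.70-fold lower in SkBr3/Lap. CACYBP lay within 2-fold in both clones, and the receptor gene TLR4 was not well above background on any array.

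The genes around the S100 genes on 1q21 were counted in the same way. Of 18 listed, 16 had a probe and 14 passed the filter. In SkBr3/Lap 4 were at least 2-fold higher and none lower, beside 12.9% and 15.6% of all probes, with a median log2 fold change of 0.63 against -0.10 over all probes. SPRR3, a cornified envelope protein, was 77.1-fold higher, from 323.1 to 46336, SPRR1B was 4.08-fold higher, and PGLYRP4 and NPR1 were at least 9.15-fold and 7.66-fold higher. In BT474/Lap SPRR3 was 6.70-fold and IVL, the gene of involucrin, 4.34-fold higher, and NPR1 was at least 2.92-fold lower, where 10.3% of all probes were higher and 5.16% lower. With normexp and quantile normalization the log2 fold changes in SkBr3/Lap were 2.04 for PGLYRP4 and 2.01 for NPR1, and that of NPR1 in BT474/Lap was -0.56, within 2-fold.

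The genes with TATAAA before the start were those that varied most over the 4 arrays, with the exception of S100A6. The range, the highest minus the lowest scaled level, was 5.04 to 13.18 (log2) in the 5 genes with the letters, where the lowest level of S100A7 and of S100A9 was not well above background. It was 1.39 to 2.38 in 4 of the 5 genes without them and 13.29 in S100A6. Among the 6 other S100 genes kept, S100A7A and S100A12 held the letters and had ranges of 5.55 and 7.39, with lowest signals not well above background, and in S100A12 the letters began 8 bases before the start. S100A7A was well above background on 1 array, which puts its level in SkBr3/Lap at least 14-fold over BT474/Lap. S100A13 held them at 1 of 3 starts with a range of 1.29. Without the letters, S100A3, S100A5 and S100A2 had ranges of 4.63, 3.45 and 2.57, the lowest signal of S100A5 being not well above background. All of these lay above the 4 narrow genes of the 10 without the letters. S100A6 and S100A14 held TATAAG and were counted as without the letters. The split by TATAAA was noticed after the values were seen and is a description of 10 genes.

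**Figure D4:**
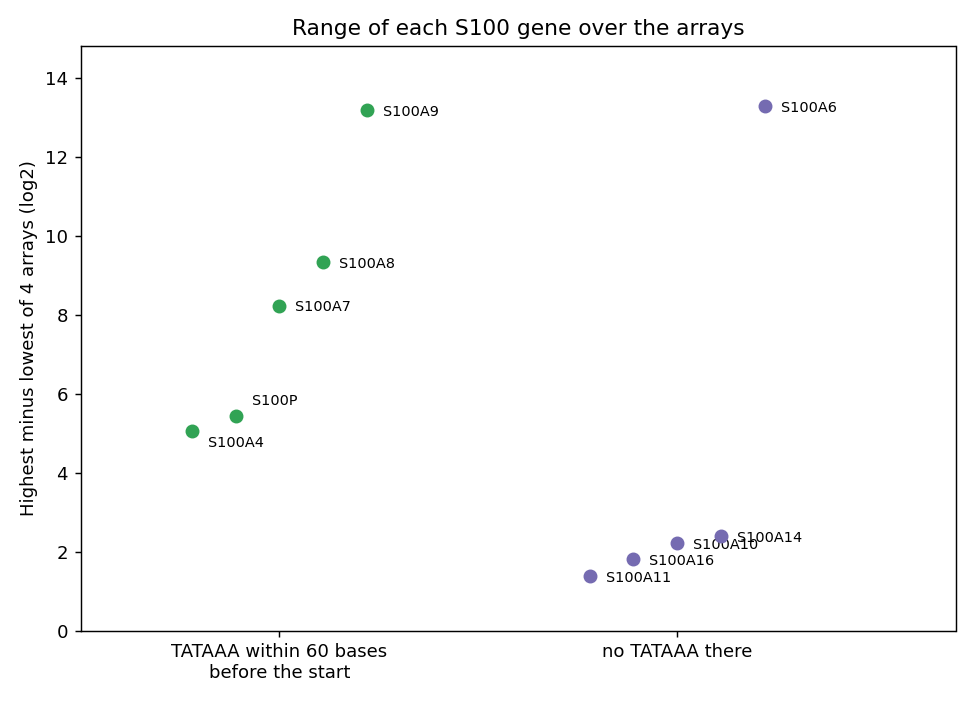
Range of the scaled level over the 4 arrays (log2, highest minus lowest) of each S100 gene, by whether TATAAA lay within 60 bases before the start shown above. The 5 genes with the letters ranged over 5.04 or more, and 4 of the 5 without them over 2.38 or less, with S100A6 at 13.29.

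The test for the clones took resistance across both cell lines, with the cell line as a block and 1 residual degree of freedom. None of the 10 genes passed (limma with Benjamini-Hochberg adjustment over all probes, adjusted p = 1.00 for each), and 0 had an unadjusted p under 0.05. Over all 25927 probes 0 passed (0%) and 900 had an unadjusted p under 0.05 (3.47%). The largest estimates were -6.52 ± 3.65 for S100A6, 3.03 ± 1.20 for S100A7 and -2.10 ± 0.85 for S100P (log2, SE, 4 arrays). A fit with the slide as the block in place of the cell line does not test resistance across both cell lines. SkBr3/Lap is alone on its slide and drops out there, which leaves BT474/Lap against the parental arrays. Its counts are therefore not given. With so few arrays a p above the threshold does not show that a level was unaltered.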

How the data were processed

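Gene expression was measured on 4 Agilent Human Whole Genome 4 × 44 K arrays, 1 per sample. The authors deposited the scanner output of each array, in which the processed signal is an intensity after background subtraction and is not scaled across arrays. The file headers name Feature Extraction 10.1.1.1 with Cy3 alone, but the methods give an older release, labeling by Cy3 or Cy5 and LOWESS normalization. The authors also deposited a table of log2 values, whose column medians were 0.12 for SkBr3, -0.20 for SkBr3/Lap, 0.11 for BT474 and -0.05 for BT474/Lap. Clone minus parent in that table differed from the same quantity in the scaled processed signals by at most 0.62 (log2), so its direction and log base were settled this way, while its centering per probe is not stated in the sources used here.

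Log2 signals were averaged over a probe's spots, and each array's 75th percentile over 41000 non-control probes was subtracted. Probes with a signal of at least 100 on at least 1 array were kept. A probe counted as well above background when the software marked 50% or more of its spots so. Where 1 side was not, the fold is a limit against the higher of its own signal and the lowest signal marked on that array (13.3 to 16.0). For genes with several probes, the brightest on average among those kept was used. Probes were named through RefSeq accessions (GRCh38.p14), used for names and gene order, because the arrays' own design names another build.

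The genes named are the 10 S100 genes, genes of the lists that differed at least 2-fold in a clone, and the 3 closest profiles to S100A6, the gene with the widest range among those well above background on all 4 arrays. Others named were chosen after their values were seen. The genes and lists were chosen with earlier results of these data known. Marker lists for other cell types were also counted. Of 4 fibroblast markers with a probe, 0 were well above background on any array, and of 4 endothelial markers 2, 3, 1 and 2 were so in SkBr3, SkBr3/Lap, BT474 and BT474/Lap.

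The test was limma 3.58.1 in R 4.3.3. After the fits it was also run on simulated data built on the probe means of these arrays, with outcomes not reported here. Other steps used Python 3.11.15, numpy 2.4.6, pandas 2.3.3 and matplotlib 3.10.9. The number of arrays limits the precision. The alternatives were other scalings (percentile over probes well above background, median, quantile), normexp with offset 50, the deposited log2 table, other filters, outlier spots left out, the mean over a gene's probes, a 3-fold threshold and limma with no block or a slide block. Leaving out S100A6 and the cell line term of the limma fit were added after the data were seen.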

Additional observations from a re-analysis of the deposited data

Results flagged for a closer look

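For 5 genes the log2 fold changes had opposite signs in the clones, a difference between cell lines that was not tested, as each side is 1 array. S100A4 had a log2 fold change of -1.54 in the SkBr3 clone and 2.0 in the BT474 clone. S100A6 gave -13.29 and 0.26, and S100A8 had 1.35 and -0.22, in the same order. S100A2 had -0.75 and 2.57, and EZR had 1.29 and -0.30. These are the genes that were well above background on all 4 arrays, had opposite signs in the clones and reached 2-fold in at least 1. They were sought among the 10 genes, the other S100 genes, the partners and receptors and the listed genes of 1q21. The endothelial marker VWF was left out of that search with the marker lists. Its kept probe met the same rule, at 0.53 in SkBr3/Lap and -1.12 in BT474/Lap. NPR1, not well above background on all arrays, was at least 7.66-fold higher in the SkBr3 clone and at least 2.92-fold lower in the BT474 clone. For S100A6, S100A8 and EZR the BT474 value was within 2-fold, and the second probe of EZR gave 0.81 in BT474/Lap, so that the opposite sign of EZR rests on the probe used.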

How the results depend on the processing

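With a 3-fold threshold 1 gene was higher and 1 lower in SkBr3/Lap, and 5 were higher in SkBr3 than in BT474 and 5 in SkBr3/Lap than in BT474/Lap. With the filter on probes well above background on all 4 arrays, 2 genes were higher in SkBr3/Lap, since S100A7 and S100A9 were then left out. Of all probes under that filter 8.80% were higher. With the 75th percentile taken over such probes, 2 genes were higher in BT474/Lap (S100A7 joined S100A4), beside 11.9% of all probes. With median scaling 2 were lower there (S100A14 at -1.10 joined S100P), beside 8.38% of all probes. Without S100A6, chosen after its value was seen, 1 gene was lower in SkBr3/Lap. Of 176 single values for the 10 genes under the alternatives, 118 moved by less than the spread within an array and 58 by more, and 0 called values changed sign. The sign of uncalled values changed in BT474/Lap for S100A9 (-0.56 to 0.10) and S100A11 (-0.05 to 0.34). Over all probes, median scaling moved the median log2 fold change to 0.05 and -0.26 for the respective clones of SkBr3 and BT474, and the share of probes past 2-fold that were higher from 45.3% to 55.3% and from 66.6% to 48.1%. The slide block fit, in which SkBr3/Lap drops out of the comparison, is set aside here. The adjusted limma count stayed 0 in each other fit (of 8 genes with the filter on all 4 arrays, of 10 otherwise). In these fits 0 to 2 genes had an unadjusted p under 0.05. Of all probes 0 passed, and 308 to 2043 had an unadjusted p under 0.05. For the cell line term, 2 genes passed under each scaling, S100A8 and S100A9, and 1, S100A8, with the filter on all 4 arrays, while 257 to 1945 of all probes passed. No paired analysis was possible because each group holds 1 array and a shared number pairs nothing beyond the cell line, which the limma fit holds as a block. Signal over background limits the BT474 values of S100A7 and S100A9, which have only a bound or no fold change, and each gene but S100A11 rests on 1 spot per array.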
